A study of Mus musculus with 18 samples.

Results

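The genes described here build tight junctions and desmosomes, the contacts that seal and strap neighbouring epithelial cells together. They were chosen by symbol, 36 of the 55401 genes in the tables: 21 tight junction genes, 14 desmosome genes and Cdh1, which encodes E-cadherin of the adherens junction. RNA was sequenced from skin and lung of female wild-type mice, with 3 libraries per group and tissue, 18 in all, sampled at day 28. AD stands for atopic dermatitis: AD mice received 4 nmol of calcipotriol, a vitamin D analogue also called MC903, with 50 µg of the egg-white protein ovalbumin. La-Cer mice received both agents and an emollient holding a linoleic acid-ceramide, a lipid of the skin barrier. Control mice were untreated, so no group separates calcipotriol from ovalbumin, and no group had the emollient alone. The labels used here give no strain or age, and whole tissue was taken, in which fewer cells of a type and less RNA per cell cannot be told apart.

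Tight junctions lie near the top of an epithelial sheet, where claudins form the paracellular barrier, occludin and the tricellulin family organise the strands, junctional adhesion molecules join the membranes, and zonula occludens proteins and cingulins connect them to the cytoskeleton. Desmosomes anchor keratin filaments: desmogleins and desmocollins cross the membrane, plakoglobin and plakophilins bind their tails, and desmoplakin, envoplakin and periplakin reach towards the filaments. In the epidermis, tight junctions form a second barrier under the cornified layer, while lung epithelium and endothelium rely on their own claudins.

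Each library held 13472283 to 19338972 counts. The tissue labels matched their defining markers: the 5 basal keratinocyte markers summed to 7010 to 29500 TMM-scaled CPM (counts scaled to library size) in skin libraries and 19.2 to 73.1 in lung libraries, and the 6 alveolar type 2 markers to 20700 to 45500 in lung and 15.2 to 61.3 in skin. Composition varied inside the skin groups. The sum of 5 hair follicle keratin and related markers ranged from 238 to 13800 in control skin, from 129 to 3000 in AD skin and from 1120 to 13200 in La-Cer skin. The 5 suprabasal keratinocyte markers summed to 1360 to 13800, 3980 to 10900 and 9440 to 16600 in the same order. Lung control replicate 1 stood apart, with an alveolar type 2 sum of 45500 beside 20700 and 22600 in the other 2 control libraries and a macrophage sum of 10600 beside 3100 and 3500. In lung the macrophage sum is nearly all Lyz2. Its control lung mean was 5650 CPM, beside 12.4 for Adgre1, 17.8 for Cd68, 61.3 for Mrc1 and 1.82 for Marco.

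Control skin and control lung differed in most of these junction genes. In authors' FPKM, a level scaled by exonic length and library total, the 14 desmosome genes together reached 1677, 1492 and 2286 in the control skin libraries against 70.2, 152 and 163 in the control lung libraries. The 21 tight junction genes together ran the other way, with 346, 263 and 210 in skin and 1303, 1106 and 1177 in lung. In the edgeR fit over all 18 libraries, 26 of the 36 members differed between control skin and control lung at an adjusted p under 0.05, against 42.8% of all genes tested. Higher in skin were 14 members, against 18.5% of all genes, and higher in lung were 12, against 24.3%. The median log2 fold change was 5.42 over the desmosome genes and -1.10 over the tight junction genes, beside -0.025 over all genes. The all-gene median moved to 0.117 when a trend with gene size was removed.

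Among desmosome genes, 12 of 14 were higher in skin and 1, Pkp2, was lower. Perp, a membrane protein that desmosome assembly needs, had the highest FPKM of the 36 members in control skin, 791, 802 and 1196, against 23.1, 14.6 and 16.9 in lung (log2 fold change 5.62 ± 0.39, adjusted p = 1.59e-08, edgeR). Pkp1, a plakophilin of stratified epithelia, stood at 127, 112 and 202 in skin and 0.01, 0.03 and 0.05 in lung (12.16 ± 0.65, adjusted p = 1.44e-09, edgeR). Dsp, the desmoplakin that links the plaque to keratin, stood at 196, 119 and 251 FPKM in skin and 4.01, 9.84 and 10.2 in lung (4.55 ± 0.43, adjusted p = 3.43e-07, edgeR). No skin library overlapped a lung library for these 3 genes. The skin desmosomal cadherins were near absent from lung: Dsc1, a desmocollin, had 3625 counts over the control skin libraries and 0 over the control lung libraries, which makes it at least 1170-fold higher in skin with a floor of 3 counts over the group. Dsg1b, a desmoglein, had 898 and 2 counts, a count ratio of 435 with an exact 95% interval of 120 to 3590. Dsg1a and Dsg1b are near-identical copies, so how reads were split between them is uncertain, and the interval and the floor hold counting error alone.

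Dsg1a (11.15 ± 0.74), Dsg3 (10.84 ± 0.82), Dsc3 (10.03 ± 0.83), Pkp3 (5.22 ± 0.33), Evpl (4.35 ± 0.45), Ppl (2.77 ± 0.46) and Dsc2 (2.01 ± 0.67) were also higher in skin on the log2 scale, with adjusted p of at most 0.0228 in edgeR. Jup, the plakoglobin shared by desmosomes and adherens junctions, was the desmosome gene that did not pass, with 115, 98.4 and 121 FPKM in control skin and 27.1, 104 and 113 in control lung. Pkp2, the plakophilin of simple epithelia and heart, was higher in lung, at 6.84, 5.89 and 4.99 FPKM against 2.35, 2.13 and 0.9 in skin (-1.82 ± 0.39, adjusted p = 0.00104, edgeR). The 4 cardiac muscle markers were also higher in lung, summing to 1210 to 1980 CPM in control lung and 5.6 to 13.3 in control skin, and their part in the Pkp2 difference was not tested.

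Each tissue had its own leading claudins. Cldn5, the main claudin of endothelium, was the highest tight junction gene in control lung, at 724, 597 and 669.5 FPKM, and stood at 5.11, 4.23 and 3.46 in control skin (-7.36 ± 0.57, adjusted p = 4.94e-08, edgeR). The 6 endothelium markers moved with it, summing to 2050 to 4310 CPM in control lung and 54.3 to 92.9 in control skin, and their part in the difference was not tested. Cldn18, the claudin of alveolar epithelium, stood at 169.9, 121 and 65.7 FPKM in lung and was listed at 0.04, 0.03 and 0 in skin (-12.42 ± 0.98, adjusted p = 5.65e-08, edgeR). Cldn3 (-3.26 ± 0.32), Cldn7 (-5.88 ± 0.51) and Cldn15 (-2.63 ± 0.62) were also lower in skin, with adjusted p of at most 0.0024 in edgeR. Cldn4 and Cldn1 led in skin: Cldn4 stood at 148, 82.3 and 35.1 FPKM in skin and 3.09, 2.99 and 4.97 in lung (4.49 ± 0.59, adjusted p = 1.07e-05, edgeR). Cldn1, the claudin whose loss opens the epidermal barrier in mice, stood at 48.8, 39.99 and 40.9 and 2.35, 2.03 and 1.98 (4.28 ± 0.43, adjusted p = 7.32e-07, edgeR). All 6 libraries separated by tissue for each of these 7 claudins.

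The remaining tight junction members that differed were all lower in skin. They were the adhesion molecules F11r (-1.10 ± 0.24), Jam2 (-3.12 ± 0.39) and Jam3 (-2.42 ± 0.43), occludin, Ocln (-1.70 ± 0.31), the zonula occludens protein Tjp1 (-2.18 ± 0.40) and the paracingulin gene Cgnl1 (-1.85 ± 0.35), with adjusted p of at most 0.00125 in edgeR. The 8 tight junction genes that did not pass were Cldn8, Cldn10, Cldn12, Cldn23, Marveld2, Marveld3, Tjp3 and Cgn. Cdh1 did not pass either, at 74.4, 74 and 97.3 FPKM in skin and 43.1, 63.3 and 63.4 in lung (0.51 ± 0.28, adjusted p = 0.165, edgeR). The map of levels over the 18 libraries shows both patterns, the desmosome rows bright in skin and the rows of Cldn5, Cldn18 and Cldn3 bright in lung.

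**Figure D1:**
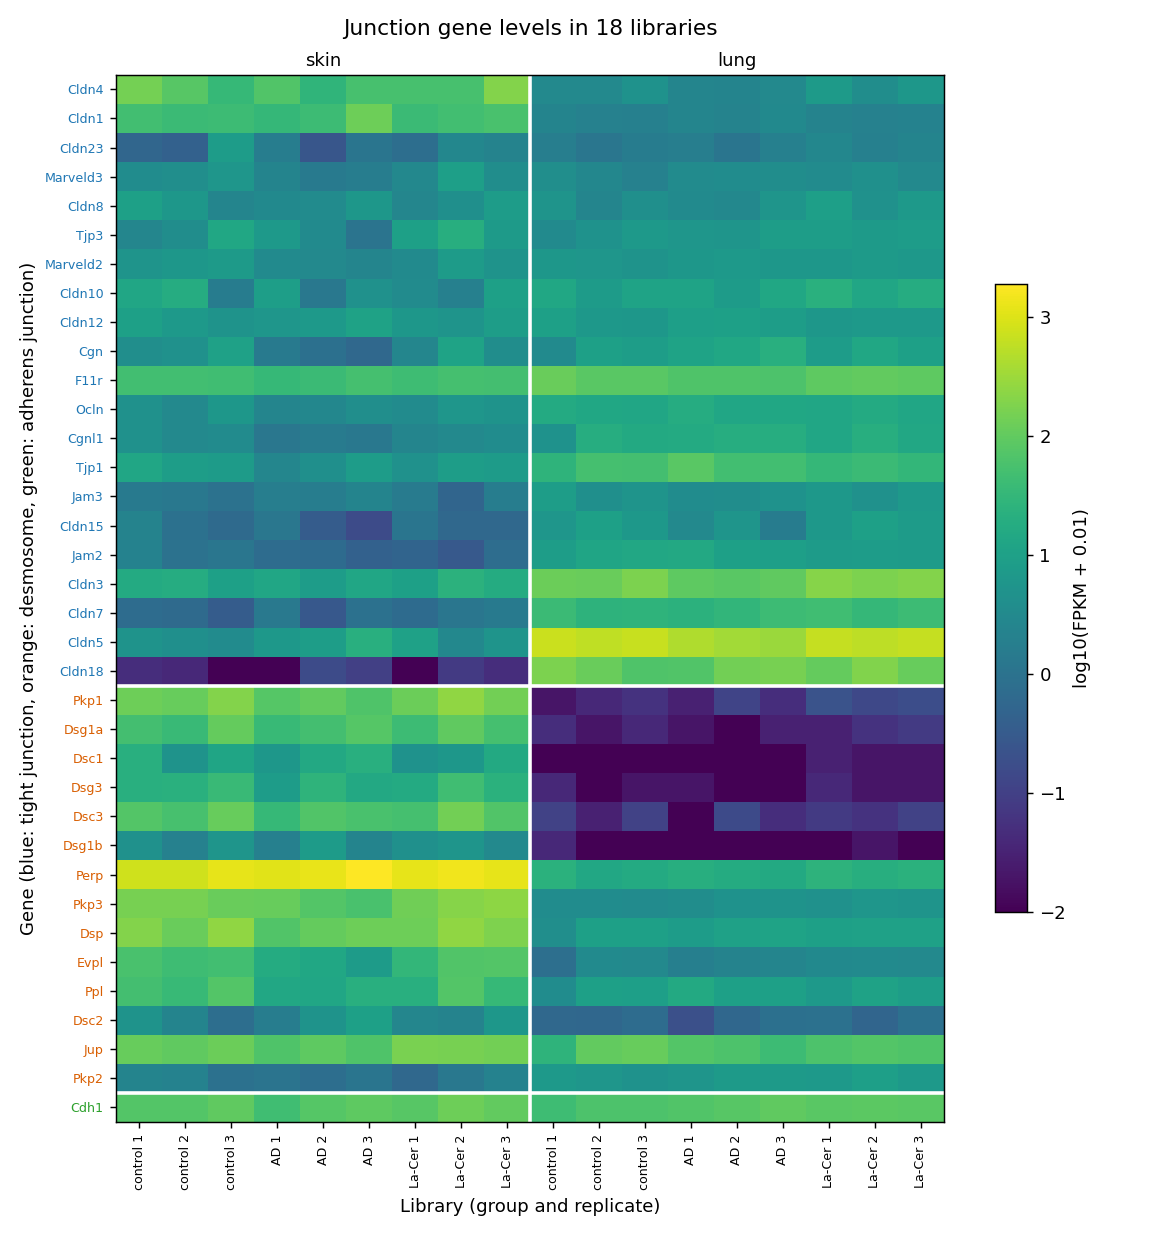
Levels of the 36 members, in authors' FPKM on a log scale, with 1 row per gene and 1 column per library. Desmosome genes are high in all 9 skin libraries and low in all 9 lung libraries for Pkp1, Dsg1a, Dsg3, Dsc1 and Dsc3, while Cldn18 is listed near 0 in skin and at 65.7 FPKM or more in every lung library.

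In AD skin 3 genes of the junction plaques were lower than in control skin. Of 35 members tested in skin (Cldn18 was below the count filter), 3 fell and 0 rose: Cgn, Cgnl1 and Evpl. Among all genes tested 6.86% were called, 3.44% down and 3.42% up. The cingulin gene Cgn (chr3:94760069-94786515), whose product ties the tight junction plaque to the actin cytoskeleton, stood at 21.3, 25.9 and 65.2 CPM in control skin and 10.03, 5.86 and 3.98 in AD skin. Its log2 fold change was -2.50 ± 0.62, adjusted p = 0.0454 in edgeR. All 3 AD libraries lay below the lowest control library, and control replicate 3 was the highest.

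The paralogue Cgnl1 (chr9:71626509-71771602) stood at 32.6, 21.9 and 28.7 CPM in control skin and 10.5, 14 and 10.9 in AD skin, a log2 fold change of -1.24 ± 0.29, adjusted p = 0.0434 in edgeR. Envoplakin, Evpl (chr11:116220559-116238077), which connects desmosomes and the cornified envelope to keratin, stood at 317, 256 and 315 CPM in control skin and 122, 100.1 and 54.9 in AD skin (-1.68 ± 0.40, adjusted p = 0.0429, edgeR). The groups did not overlap for either gene, and AD replicate 3 was the lowest for Evpl. Its partner periplakin, Ppl, stood at 300.2, 228 and 516 CPM in control skin and 111, 103 and 160.1 in AD skin, and its log2 fold change of -1.48 ± 0.46 did not pass (adjusted p = 0.0707, edgeR). Leaving out any 1 of the 6 libraries ended the 3 calls, in fits that called 0 to 535 of all genes, beside 1163 in the main fit. Over these 6 edgeR fits the log2 fold change ran from -2.94 to -1.78 for Cgn (adjusted p 0.0722 to 0.169). It ran from -1.39 to -1.11 for Cgnl1 (0.0592 to 0.175) and from -1.94 to -1.41 for Evpl (0.062 to 0.169).

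The promoters of Cgn and Cgnl1 are shown because these 2 genes fell in AD skin, and those of Cldn5 and Cldn3 because they lead the lung results below. Each is the 250 bases before the RefSeq start on GRCm38.p6, written 5′ to 3′ on the gene's strand. Capitals mark the grainyhead motif AACCNGTT, read on both strands, which Grainyhead-like factors bind in epithelial genes.
Cgn, chr3:94786483-94786732, minus strand: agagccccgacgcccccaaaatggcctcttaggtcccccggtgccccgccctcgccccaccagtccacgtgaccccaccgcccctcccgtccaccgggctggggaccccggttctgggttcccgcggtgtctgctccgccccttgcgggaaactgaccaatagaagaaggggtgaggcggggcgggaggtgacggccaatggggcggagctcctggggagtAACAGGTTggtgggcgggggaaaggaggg
Cgnl1, chr9:71771603-71771852, minus strand: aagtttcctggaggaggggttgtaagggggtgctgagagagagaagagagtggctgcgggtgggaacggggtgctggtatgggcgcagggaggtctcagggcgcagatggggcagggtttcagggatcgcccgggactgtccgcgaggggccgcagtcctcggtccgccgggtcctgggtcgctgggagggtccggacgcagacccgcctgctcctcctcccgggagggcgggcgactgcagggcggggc
Cldn5, chr16:18776597-18776846, plus strand: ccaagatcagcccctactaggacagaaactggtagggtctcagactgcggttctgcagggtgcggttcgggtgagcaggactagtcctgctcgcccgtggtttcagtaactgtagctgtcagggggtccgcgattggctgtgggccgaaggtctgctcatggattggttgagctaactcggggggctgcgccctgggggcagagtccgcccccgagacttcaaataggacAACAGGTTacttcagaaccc
Cldn3, chr5:134985964-134986213, plus strand: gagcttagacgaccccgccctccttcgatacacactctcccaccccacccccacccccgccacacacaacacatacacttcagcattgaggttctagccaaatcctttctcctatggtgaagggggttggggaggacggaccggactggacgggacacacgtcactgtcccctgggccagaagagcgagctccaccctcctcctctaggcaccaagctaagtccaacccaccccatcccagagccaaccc
RefSeq promoters were found for 18 of the 36 members, and 2 of these held the motif on either strand: Cgn, 29 bases before the start, and Cldn5, 20 bases before it. Of all 32851 promoters, 588 held it in the same window, or 1.79%. The E-box CACCTG, a sequence that Snail and Zeb factors bind, searched on both strands, was in 3 of the 18, those of Cldn4, Tjp3 and F11r, and in 17.2% of all promoters. These matches are letters in a window and describe no binding.

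**Figure D2:**
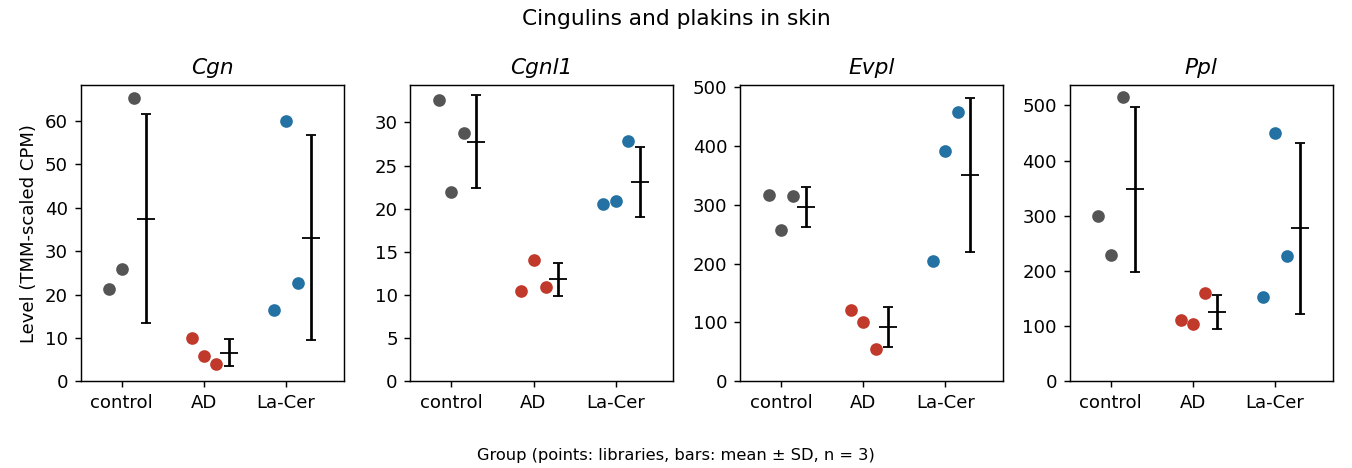
TMM-scaled CPM of plaque genes in the 9 skin libraries, by group, with points for libraries and bars for mean ± SD (n = 3). For Cgn, Cgnl1, Evpl and Ppl every AD library lies below every control library, and for each gene at least 1 La-Cer library reaches the control range.

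The other members of AD skin did not pass the test. Perp stood at 1344, 1448 and 2417 CPM in control and 2389, 2859 and 4091 in AD skin, where only AD replicate 1 fell within the control range (0.84 ± 0.39, adjusted p = 0.177, edgeR). Cldn5 stood at 6.3, 5.54 and 5.07 CPM in control and 10.3, 13.8 and 33.3 in AD skin, with no overlap (1.76 ± 0.58, adjusted p = 0.0819, edgeR). The 6 endothelium markers summed to 54.3 to 92.9 and 44.9 to 80.3 CPM, but they went different ways. Control and AD skin means were 18 and 8.82 for Cdh5, 9.04 and 3.9 for Kdr and 8.83 and 4.85 for Tek. They were 23 and 27.2 for Pecam1, 4.62 and 6.15 for Emcn and 4.56 and 6.62 for Vwf. The part of endothelium in the Cldn5 values was not tested. Cldn1 was 206, 179 and 205 CPM in control and 172, 227 and 697 in AD skin. AD replicate 3 alone was high, and the fold change of 0.89 ± 0.48 (adjusted p = 0.238, edgeR) was 0.02 without that library. Tjp1 (-0.70 ± 0.40, adjusted p = 0.268), Ocln (-0.34 ± 0.36, adjusted p = 0.562), Dsp (-0.66 ± 0.43, adjusted p = 0.33), Dsg1a (-0.07 ± 0.49, adjusted p = 0.939) and Cdh1 (0.06 ± 0.35, adjusted p = 0.921) overlapped between control and AD skin in edgeR.

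By count, libraries of AD and control skin did not overlap for 9 of 35 members, 2 higher in AD (Cldn5 and Jam3) and 7 lower, against 34.5% of all genes tested. The median log2 fold change was -0.58 over the 20 tight junction genes tested and -0.43 over the 14 desmosome genes, beside -0.054 over all genes. Both keratinocyte sums and the hair follicle sum overlapped between these groups. The basal keratinocyte sum was 7010 to 23200 CPM in control and 12100 to 21200 in AD skin. Its control and AD means rose for Krt5 (6360 and 6860), Krt14 (3420 and 7730) and Krt15 (2450 and 2810). They fell for Col17a1 (945 and 536) and Itgb4 (209 and 57.2). Hair follicle means were all lower in AD skin: Krt25 (2050 and 526), Krt27 (1060 and 320), Krt71 (2690 and 699), Krt73 (830 and 175) and Msx2 (139 and 60.5). No marker of the keratinocyte and hair follicle lists was at 0 as a group mean in skin. Other cell type sums did not overlap and were higher in AD skin: sebaceous gland 1520 to 2240 in control and 3400 to 9360 in AD skin, macrophage 38.9 to 116 and 140 to 240, neutrophil 9.02 to 16.6 and 42.4 to 801, and T cell 0.42 to 1.95 and 2.39 to 3.11 CPM. The T cell sum was near the floor and its markers differed. Control and AD skin means were 0.543 and 1.16 for Cd3e and 0.133 and 1.22 for Cd3d. They were 0.249 and 0.284 for Cd4, 0.152 and 0.0816 for Trac, and 0 in both groups for Cd8a. The part of these cell types in the falls was not tested.

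Gene size moved with the changes. The tables give the summed exon length of each gene: a median of 3284 bases for the tight junction members (1259 to 7844). It was 5381.5 bases for the desmosome members (1952 to 9659), beside 3863 bases for all genes tested in skin. Over all 16956 genes in AD against control skin, Spearman's rho between exonic size and log2 fold change was -0.37, and over the 35 members it was -0.35. These are correlations across genes that share libraries, given without a test. As a per-library measure, the median deviation in log2 level of the longest of 5 size classes minus that of the shortest was 0.76, 0.24 and 0.64 in control skin and -0.96, -0.25 and -0.70 in AD skin. In lung AD against control the sign of rho was opposite, with 0.58 over 31 members and 0.36 over all genes, and in lung La-Cer against AD rho was -0.62 and -0.36. The per-library measure was -1.17, 0.25 and 0.225 in control lung, where replicate 1 stood apart. It was 0.70, 0.41 and 0.33 in AD lung and -0.44, -0.13 and -0.32 in La-Cer lung.

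The 3 genes that fell in AD skin are long: Cgn has 6044 exonic bases, Evpl 6384 and Cgnl1 7844, and Ppl, which did not pass, has 6893. Each also lay below the median of its size class, out of 10 classes of all genes: the class median was -0.36 for Cgn, and the gene's log2 fold change was lower than its class median by 2.14 for Cgn, 1.33 for Evpl, 1.13 for Ppl and 0.78 for Cgnl1. With the size trend removed from each library, the edgeR log2 fold changes were -2.17 for Cgn (adjusted p = 0.0791), -1.33 for Evpl (adjusted p = 0.0787) and -0.79 for Cgnl1 (adjusted p = 0.11), and 0 of 35 members and 0 of all genes were called. In that fit 8 members had an unadjusted p below 0.05, and DESeq2, run with no size correction, called 5 members and 15.7% of all genes.

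**Figure D3:**
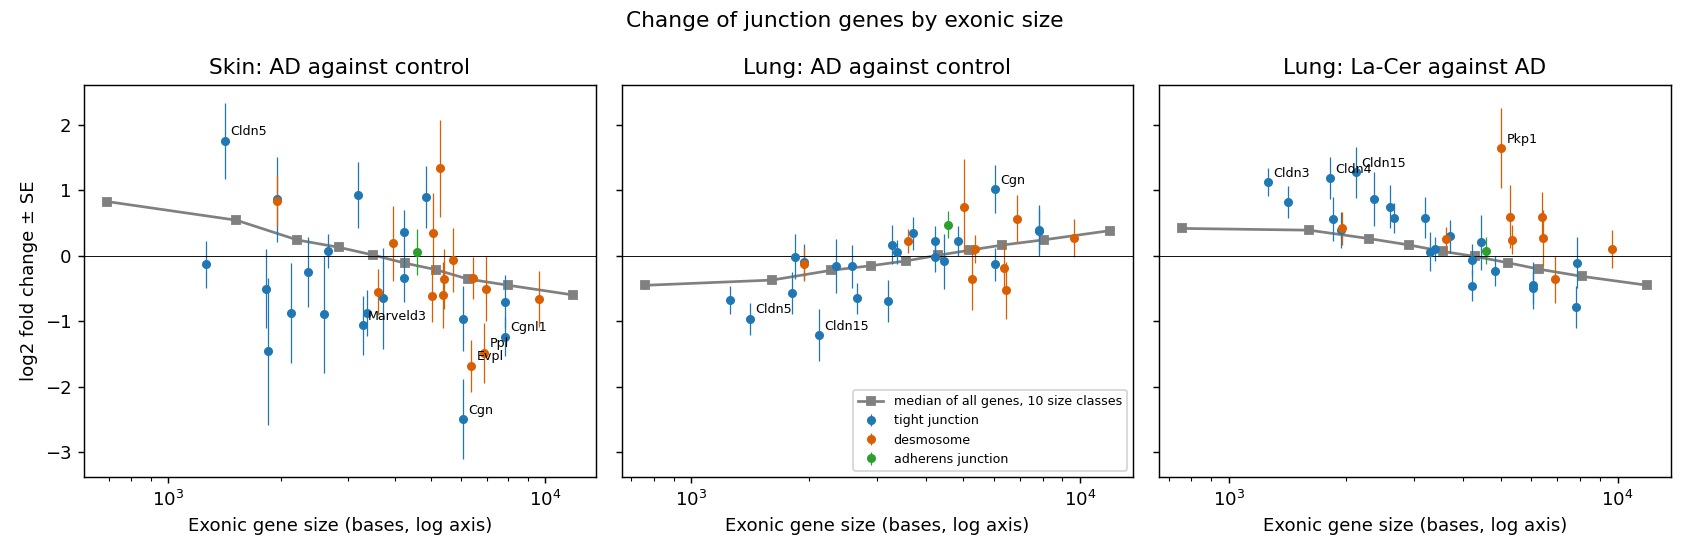
log2 fold change (± SE) of each tested member against its exonic size in bases (log axis), for the AD changes in skin and in lung and the La-Cer change from AD in lung; the grey line is the median of all genes in 10 size classes. The line falls with size in AD skin, rises in AD lung and falls in La-Cer lung, and Cgn in AD skin and Cldn3 in La-Cer lung lie off it.

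With the emollient, the same skin plaque genes had higher means than in AD skin, and no member was called. In La-Cer against AD skin, edgeR called 0 of 35 members and 0% of all genes; 7 members had an unadjusted p under 0.05, and DESeq2 called 2, Cgn and Evpl, against 5.31% of all genes by DESeq2. Evpl stood at 205, 391 and 458 CPM in La-Cer skin (1.93 ± 0.40, adjusted p = 0.141, edgeR), Cgn at 16.5, 60.1 and 22.6 (2.32 ± 0.61, adjusted p = 0.147, edgeR) and Cgnl1 at 20.6, 20.9 and 27.8 (0.97 ± 0.29, adjusted p = 0.162, edgeR). All La-Cer libraries lay above all AD libraries for these 3 genes. Size moved with this change too: rho between exonic size and log2 fold change was 0.27 over the 35 members and 0.24 over all genes. The size-class median was 0.197 for Evpl and Cgn and 0.227 for Cgnl1. The per-library size measure was -0.277, 0.425 and -0.021 in La-Cer skin, beside -0.963, -0.25 and -0.697 in AD skin. The part of size in these higher values was not tested. La-Cer against AD and AD against control share the AD libraries, so their values are set side by side and no likeness is read from them.

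Further members with the smallest p did not overlap with AD skin either: Marveld3, a tricellulin-family gene (1.28 ± 0.45, adjusted p = 0.189), Pkp3 (1.03 ± 0.35, adjusted p = 0.179) and Jup (0.85 ± 0.32, adjusted p = 0.207), in edgeR. Cldn1 (-0.68 ± 0.47), Tjp1 (0.26 ± 0.40), Ocln (0.42 ± 0.36), Dsp (0.65 ± 0.43), Dsg1a (0.02 ± 0.49) and Cdh1 (0.27 ± 0.35) overlapped between La-Cer and AD skin, with adjusted p of 0.427 to 0.988 in edgeR. Groups did not overlap for 8 members, 7 higher and 1 lower in La-Cer, against 22.5% of all genes. The median log2 fold change was 0.26 over tight junction and 0.48 over desmosome genes, beside 0.015 over all genes. The suprabasal keratinocyte sum overlapped, at 9440 to 16600 CPM in La-Cer skin and 3980 to 10900 in AD skin. Lower in La-Cer skin without overlap were the macrophage sum (34.4 to 121 beside 140 to 240), neutrophil sum (7.53 to 33.9 beside 42.4 to 801) and fibroblast sum (269 to 372 beside 461 to 655). Means of Marco (0.223 beside 0), Mpo (1.85 beside 1.23) and Col1a1 (81.9 beside 72.5) went the other way. The part of these cell types was not tested.

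Against control skin, La-Cer skin gave 0 called members of 35 in edgeR, against 0% of all genes, where 1 had an unadjusted p below 0.05 and DESeq2 called 0. That member was Jam2, an endothelial adhesion molecule, at 11.4, 5.42 and 7.18 CPM in control and 3.18, 1.53 and 4.47 in La-Cer skin (-1.39 ± 0.50, adjusted p = 0.836, edgeR). The sum of the 6 endothelium markers was also lower without overlap, at 54.3 to 92.9 CPM in control and 22.1 to 53 in La-Cer skin. Among them Vwf went the other way, with means of 4.56 in control and 5.44 in La-Cer skin. The part of endothelium in the Jam2 value was not tested. Cldn7 (1.02 ± 0.65, adjusted p = 0.875), Cldn10 (-1.02 ± 0.90, adjusted p = 0.899), Jup (0.51 ± 0.32, adjusted p = 0.875), Pkp3 (0.47 ± 0.34, adjusted p = 0.881) and Perp (0.47 ± 0.39, adjusted p = 0.893) came next in edgeR. Cgn (-0.18 ± 0.58), Cldn1 (0.22 ± 0.47), Ocln (0.08 ± 0.36), Tjp1 (-0.44 ± 0.40), Dsg1a (-0.05 ± 0.49), Dsp (-0.01 ± 0.43) and Cdh1 (0.33 ± 0.35) had adjusted p of 0.899 to 0.999 in edgeR. Groups did not overlap for 5 members, 3 higher and 2 lower, against 13.5% of all genes.

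In AD lung Cldn3, Cldn5 and Cldn15 had lower values than in control lung, and no member passed the test. edgeR called 0 of 31 members (Dsg1a, Dsg1b, Dsg3, Dsc1 and Dsc3 were below the count filter) and 0.0463% of all genes; 6 members had an unadjusted p under 0.05, and DESeq2 called 3, Cldn3, Cldn5 and Cldn15, all lower, against 6.72% of all genes by DESeq2. Cldn5 stood at 1166, 831 and 951 CPM in control and 634, 465 and 417 in AD lung (-0.96 ± 0.24, adjusted p = 0.109, edgeR). Cldn15 stood at 14.1, 20.8 and 14 in control and 6.75, 11 and 3.28 in AD lung (-1.22 ± 0.40, adjusted p = 0.152, edgeR). No AD library reached a control library for either gene. The endothelium sum was 2050 to 4310 CPM in control and 2090 to 4040 in AD lung, but its markers differed. Control and AD lung means were 995 and 614 for Cdh5, 461 and 342 for Kdr, 587 and 448 for Tek and 82.9 and 43.6 for Emcn. They were 1080 and 1110 for Pecam1 and 318 and 339 for Vwf. The part of endothelium was not tested.

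Cldn3 (chr5:134986214-134987472), an epithelial barrier claudin, stood at 176, 147 and 216 CPM in control and 119, 97.9 and 120.4 in AD lung (-0.68 ± 0.21, adjusted p = 0.142, edgeR). Cgn had higher values in AD, 23.5, 58.2 and 51.6 in control and 72.1, 75.2 and 123 in AD lung (1.02 ± 0.36, adjusted p = 0.177, edgeR). For Cldn3 and Cgn the control and AD libraries did not overlap. Exonic sizes are 1259 bases for Cldn3, 1416 for Cldn5, 2124 for Cldn15 and 6044 for Cgn. The size-class medians in AD against control lung were -0.372, -0.372, -0.222 and 0.163 in that order. Gene minus class median was -0.309, -0.588, -0.995 and 0.857. The part of size in these values was not tested. Cldn18 (-0.09 ± 0.42), Ocln (-0.02 ± 0.23) and Tjp1 (0.40 ± 0.32) overlapped, with adjusted p of 0.505 to 0.968 in edgeR. Cdh1 was 0.48 ± 0.20 (adjusted p = 0.226, edgeR). Of the 9 desmosome genes tested, Ppl (0.57 ± 0.36), Pkp3 (0.22 ± 0.19) and Jup (-0.53 ± 0.43) had the smallest p, with adjusted p of 0.388 to 0.525 in edgeR. Groups did not overlap for 6 members, 2 higher and 4 lower in AD, against 24.3% of all genes.

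Without lung control replicate 1, 1 member was called in AD against control lung: Cldn12, which rose, with 47.1, 27 and 25.9 CPM in the control libraries and 41.4, 39 and 35.9 in the AD libraries. That fit called 5.62% of all genes. The tight junction genes together were 895, 841 and 841 FPKM in AD lung, below the 1106 to 1303 of control lung and the 1237 to 1275 of La-Cer lung. This sum, of which Cldn5 had the largest share in control lung, was not tested. In AD against control lung the median log2 fold change over the 21 tight junction genes was -0.087, with 8 higher and 13 lower. Over all genes it was 0.008. With the size trend removed, these medians were 0.074 and -0.018.

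In La-Cer lung, Cldn3 rose over AD lung. It was the 1 called member of 31, against 1.91% of all genes, of which 0.845% were up and 1.07% down. Its level was 272, 219 and 245 CPM in La-Cer lung beside 119, 97.9 and 120.4 in AD lung, a log2 fold change of 1.13 ± 0.21, adjusted p = 0.042 in edgeR, and every La-Cer library lay above every AD and every control library. The call was absent when any 1 of the 6 libraries was left out. Log2 fold changes were then 1.04 to 1.21, with edgeR adjusted p of 0.0784 to 0.216. Those fits called 0 to 16 of all genes, beside 330 in the main fit. The log2 fold change was 0.71 (adjusted p = 0.129) with the size trend removed. Cldn3 has 1259 exonic bases, the shortest of the members, and the median of its size class in this comparison was 0.39. Cldn5, in the same class, stood above that median by 0.43 and Cldn3 by 0.74. The alveolar type 2 sum was 30100 to 32100 CPM in La-Cer and 21400 to 25700 in AD lung. The ciliated sum was 1050 to 1220 and 470 to 799. The alveolar type 1 sum was 3280 to 5490 and 2340 to 2530, and each of its markers had a higher mean in La-Cer lung. The fibroblast sum was 1010 to 1130 and 713 to 948, while its marker Pdgfra went the other way (means 237 and 276). Sftpc made up most of the type 2 sum, with means of 24000 in La-Cer and 15700 in AD lung. Other markers were lower in La-Cer lung: Sftpa1 (3020 beside 4230), Lamp3 (421 beside 629) and the ciliated marker Ccdc39 (16.5 beside 32). The part of these cell types in the rise of Cldn3 was not tested.

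Other claudins had higher means in La-Cer than in AD lung without passing. Cldn4 stood at 14, 6.8 and 11.1 CPM in La-Cer and 4.66, 3.97 and 5.37 in AD lung (1.19 ± 0.33, adjusted p = 0.0766, edgeR), and Cldn5 at 945, 798 and 933 and 634, 465 and 417 (0.82 ± 0.24, adjusted p = 0.0888, edgeR). Groups did not overlap for either. Tjp1 (-0.78 ± 0.32, adjusted p = 0.169) was lower without overlap, while Ocln (-0.06 ± 0.23, adjusted p = 0.896), Cgn (-0.45 ± 0.36, adjusted p = 0.453), Cldn18 (0.21 ± 0.42, adjusted p = 0.787) and Cdh1 (0.08 ± 0.20, adjusted p = 0.837) overlapped in edgeR. Among desmosome genes Pkp1 (1.65 ± 0.61, adjusted p = 0.139), Perp (0.42 ± 0.25, adjusted p = 0.318) and Evpl (0.59 ± 0.38, adjusted p = 0.348) had the smallest p in edgeR. Pkp1 in lung is close to the floor of detection, at 1.06, 0.665 and 0.848 and 0.119, 0.517 and 0.169 CPM. In all, groups did not overlap for 11 members, 8 higher and 3 lower in La-Cer, against 44.6% of all genes. In edgeR, 8 members had an unadjusted p under 0.05.

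**Figure D4:**
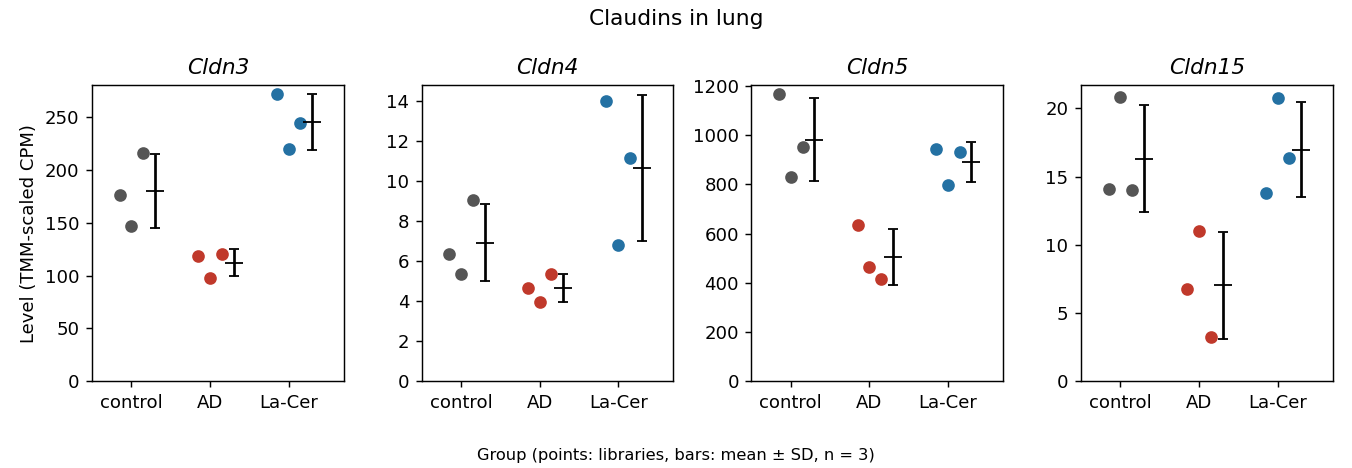
TMM-scaled CPM of 4 claudins in the 9 lung libraries, by group, with points for libraries and bars for mean ± SD (n = 3). The 3 AD libraries are the lowest for Cldn3, Cldn5 and Cldn15, and Cldn3 passed the test in La-Cer against AD.

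Against control lung, La-Cer lung gave 0 called members of 31 in edgeR, against 0.0347% of all genes, where 5 had an unadjusted p below 0.05 and DESeq2 called 0. Here equal replicate numbers deviated together, and the fit with a replicate block also called 0 members, and 0 of all genes in place of 6. Pkp1 (2.39 ± 0.66), Cdh1 (0.55 ± 0.20), Tjp3, a zonula occludens gene (0.64 ± 0.25), Pkp3 (0.47 ± 0.19), Cldn3 (0.45 ± 0.21), Pkp2 (0.35 ± 0.22) and Jam2 (-0.62 ± 0.25) had the smallest p of their classes, and all adjusted p were 0.999 in edgeR. Cldn5 (-0.14 ± 0.24), Cldn18 (0.12 ± 0.42), Ocln (-0.08 ± 0.23), Tjp1 (-0.39 ± 0.32) and Cgn (0.57 ± 0.36) overlapped between the groups. Groups did not overlap for 7 members, 6 higher and 1 lower, against 11.3% of all genes.

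The change with AD differed between skin and lung for 4 members. The interaction term over 18 libraries called 4 of 36, against 14.7% of all genes: 1 with the larger log2 change in skin, Cldn5, against 9.44%, and 3 with the lower, Cgn, Cgnl1 and Ppl, against 5.3%. For Cldn5 the log2 fold change was 1.76 in skin and -0.96 in lung, and the difference was 2.80 ± 0.63, adjusted p = 0.0131 in edgeR. For Cgn it was -2.50 in skin and 1.02 in lung, a difference of -3.43 ± 0.76, adjusted p = 0.0126 in edgeR. Cgn fell in skin while the lung change did not pass, and the difference itself passed.

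Cgnl1 differed by -1.54 ± 0.49, adjusted p = 0.0441 and Ppl by -1.97 ± 0.61, adjusted p = 0.0416 in edgeR. Evpl (-1.41 ± 0.56, adjusted p = 0.0957), Perp (1.05 ± 0.45, adjusted p = 0.118), Dsp (-0.85 ± 0.52, adjusted p = 0.272), Tjp1 (-1.02 ± 0.54, adjusted p = 0.2) and Cldn1 (0.74 ± 0.54, adjusted p = 0.358) did not pass, nor did Ocln (-0.24 ± 0.43, adjusted p = 0.745) or Cdh1 (-0.34 ± 0.40, adjusted p = 0.603). Cldn18 (2.16 ± 1.18, adjusted p = 0.217) and Dsg1a (1.35 ± 1.11, adjusted p = 0.421) did not pass in edgeR, and each was below 1 CPM in every library of 1 tissue. In fits that left out 1 library each, Cgnl1 was called in 4 of 12 (-1.89 to -1.17, edgeR adjusted p 0.0222 to 0.104) and Ppl in 4 of 12 (-2.21 to -1.57, 0.0389 to 0.108). Cldn5 (2.14 to 3.08) and Cgn (-3.89 to -2.76) were called in 12 of 12. With the size trend removed, Cldn5 (2.13, adjusted p = 0.041) and Cgn (-3.05, adjusted p = 0.0197) passed in edgeR, and Cgnl1 (-1.0, adjusted p = 0.114) and Ppl (-1.44, adjusted p = 0.0949) did not.

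**Figure D5:**
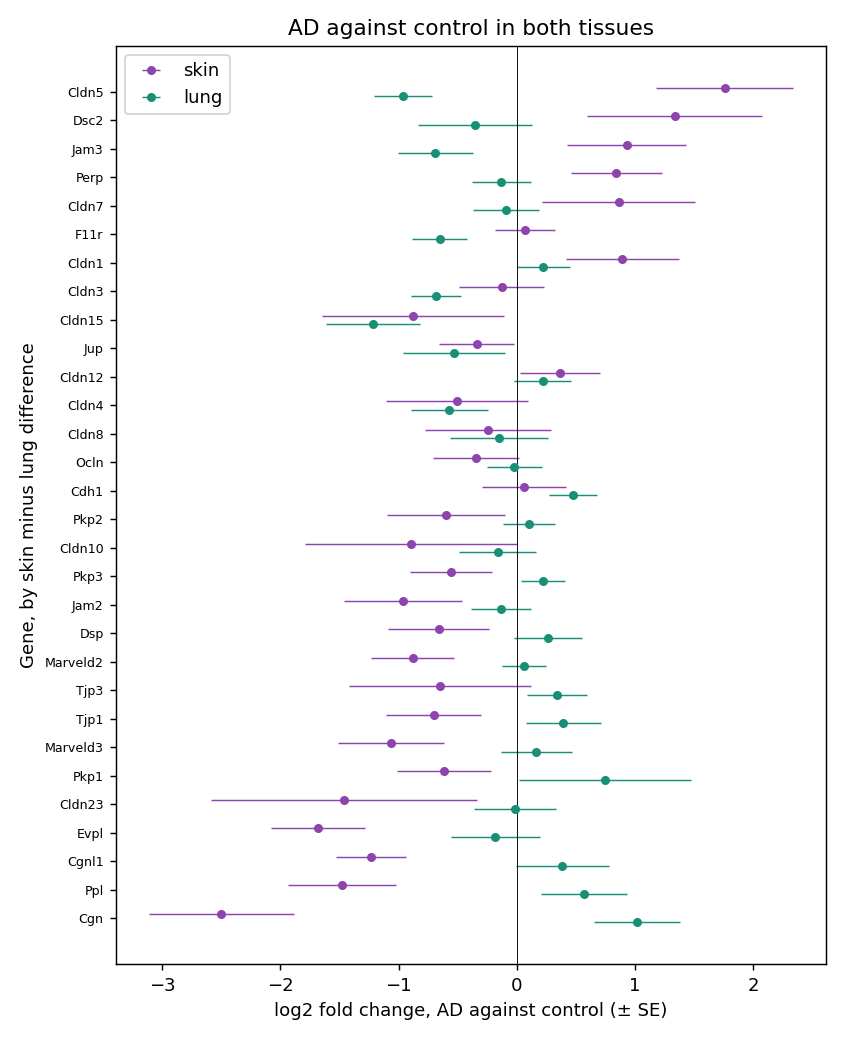
log2 fold change of AD against control (± SE) in skin and lung for the 30 members tested in both tissues, ordered by the skin minus lung difference. Cldn5 is at 1.76 in skin and -0.96 in lung, and Cgn at -2.50 and 1.02.

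For the La-Cer effect on AD, 0 of the 36 members passed the test of a difference between tissues in edgeR, against 1.62% of all genes, where 6 had an unadjusted p below 0.05 and DESeq2 called 2, against 10.3% of all genes by DESeq2. Cgn (2.73 ± 0.75, adjusted p = 0.0619), Cldn5 (-2.02 ± 0.62, adjusted p = 0.0764) and Jam3 (-1.46 ± 0.58, adjusted p = 0.138) had the smallest p of the tight junction genes, and Ppl (1.48 ± 0.61, adjusted p = 0.151) and Evpl (1.29 ± 0.56, adjusted p = 0.171) of the desmosome genes other than Dsc1, in edgeR. Dsc1, which had 0 counts in AD lung, ranked beside them with -4.25 ± 2.19, adjusted p = 0.249, and its fitted value depends on the prior count. Tjp1 (1.001 ± 0.54), Dsp (0.51 ± 0.52), Cldn1 (-0.48 ± 0.54), Ocln (0.44 ± 0.43), Cdh1 (0.15 ± 0.40), Cldn18 (-1.39 ± 1.10) and Dsg1a (-1.97 ± 1.04) had adjusted p of 0.252 to 0.864 in edgeR.

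Some junction genes outside the 36 were called in AD skin, where 6.86% of all genes were called and 3.44% fell. These calls were absent with the size trend removed or with a replicate block, since either fit called 0 of all genes. Of 27 other tight junction genes tested, 3 fell (11.1%) and 0 rose: Amotl2 (-1.35 ± 0.27, adjusted p = 0.0413), the polarity scaffold Pard3 (-1.31 ± 0.32, adjusted p = 0.0437) and Magi1 (-1.19 ± 0.31, adjusted p = 0.048), in edgeR. Of 6 other desmosome and corneodesmosome genes, 3 fell and 0 rose: Kazn (-1.63 ± 0.34, adjusted p = 0.0413), the desmoglein Dsg2 (-1.65 ± 0.37, adjusted p = 0.0417) and Pkp4 (-1.26 ± 0.30, adjusted p = 0.043), in edgeR. Of 14 other adherens junction genes tested, 3 fell (21.4%) and 0 rose: Zyx (-1.38 ± 0.30), Nectin1 (-1.22 ± 0.29) and the p120 catenin gene Ctnnd1 (-1.31 ± 0.33), with adjusted p of 0.0417 to 0.0457 in edgeR.

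Of 14 epithelial transcription factors, 1 was called (7.14%), a share near that of all genes. It was Grhl3, a Grainyhead-like factor of the epidermal barrier, which fell (-1.51 ± 0.38, adjusted p = 0.0454, edgeR). None of these lists had a called gene in La-Cer against AD or La-Cer against control in skin, or in any of the 3 lung comparisons. The AD effect differed between skin and lung for 5 of 31 other tight junction genes (16.1%, near the 14.7% of all genes), with Crb3 higher in skin (1.61 ± 0.47, adjusted p = 0.0308) and Magi1, Amotl2, Pard6b and Arhgef18 lower in edgeR. It differed for Dsg2 (-2.27 ± 0.50, adjusted p = 0.0122, edgeR) among 6 other desmosome genes. Between control skin and control lung 18.5% of all genes were higher and 24.3% lower in skin. Beside that, 6 of 31 other tight junction genes were higher and 12 lower, 4 and 0 of 6 other desmosome genes, 4 and 6 of 14 other adherens junction genes, and 8 and 4 of 14 transcription factors.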

How the data were processed

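Per the labels' protocols, a Promega Eastep kit gave the RNA, and a SMARTER mRNA-Seq kit turned 1.5 µg per sample into 18 libraries. GRCm38, cutadapt 1.9.1 and bcl2fastq 2.17.1.14 appear in the submitters' processing notes. Which aligner and counter were used, and whether strand was, is not given in the sources used here; reads of overlapping and antisense genes may therefore be mixed. The authors' deposited tables hold raw read counts per gene for 9 libraries per tissue, per the file headers. The deposited FPKM, per the file headers, equal count over exonic size and column total to within 0.005 for all 498609 values per tissue, so they served as levels and were not tested.

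edgeR 4.0.16 (TMM, filterByExpr, robust quasi-likelihood fit; R 4.3.3) was run on the counts over the 9 libraries of a tissue, or all 18 for contrasts between tissues. P-values were adjusted by Benjamini-Hochberg over all genes tested, and called under 0.05. SE is the absolute log2 fold change over the root of F. CPM are TMM-scaled. Size trends were lowess curves (span 0.3) of log2 level on exonic size, used as an offset. Some library codes recur in both tissues, so libraries may share mice, and the fits have no mouse term. P-values measure the spread between libraries, which may in part be technical. No pair of libraries of a group agreed within sampling noise. The scripts were tested on simulated data.

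The members, lists and tests were chosen with earlier results of these data known. Named with a fold change were called members, up to 3 per class by smallest p, and fixed genes (Cldn1, Ocln, Tjp1, Cgn, Dsg1a and Dsp in skin; Cldn18, Cldn5, Ocln, Tjp1, Cgn and Cdh1 in lung), so Cdh1, alone in its class, throughout. Alternatives were RLE size factors, no filter, DESeq2 1.42.0, the 6 libraries compared, the size trend removed, a replicate block and leaving out each library. Equal replicate numbers deviated together (correlations 0.31, 0.13 and 0.19) only for control and La-Cer lung; elsewhere correlations ran from -0.73 to 0.26. Promoters are from RefSeq, GRCm38.p6.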

Additional observations from a re-analysis of the deposited data

Results flagged for a closer look

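The change with AD differed between skin and lung by a test of the difference itself for 4 of 36 members, 11.1%, below the 14.7% of all genes called in that test. The log2 difference, skin minus lung, was 2.797 for Cldn5, -3.429 for Cgn, -1.541 for Cgnl1 and -1.967 for Ppl, with edgeR adjusted p of 0.0131, 0.0126, 0.0441 and 0.0416. In 12 fits that left out 1 library each, Cldn5 and Cgn were called in 12, and Cgnl1 and Ppl in 4.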

How the results depend on the processing

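The control skin against lung count was 26 members under RLE, no filter, DESeq2, the size trend, the replicate block and the 6 control libraries, and 25 to 27 when 1 control library was left out. In AD against control skin, 3 members were called; without a filter 5, by DESeq2 5, in the 6 libraries compared 2 (Cgn and Evpl; Cgnl1 had an edgeR adjusted p of 0.0635), with the size trend removed 0, with a replicate block 0, and 0 to 0 when 1 library was left out. La-Cer against AD skin gave 0, but 1 without a filter and 2 by DESeq2. AD against control lung gave 0, but 3 by DESeq2 and 0 to 1 with 1 library left out (1 without lung control replicate 1). La-Cer against AD lung gave 1, but 0 with the size trend removed, 0 with the replicate block, 4 by DESeq2 (which called 11.4% of all genes), 6 in the 6 libraries compared (23.9% of all genes) and 0 to 0 with 1 library left out. The AD difference between tissues gave 4, but 6 by DESeq2 (20.4% of all genes), 2 with the size trend removed, and 2 to 5 with 1 library left out. The La-Cer difference gave 0, but 1 without a filter, 2 by DESeq2 and 0 to 2 with 1 library left out (2 without skin La-Cer replicate 1). The cause was not tested. Called genes in AD skin were 1163 in all, 1908 without a filter, 2879 by DESeq2, 590 in the 6 libraries compared and 0 with the size trend or the replicate block. Among the named members, the replicate block ended the calls of Cgn, Cgnl1 and Evpl in AD skin and of Cldn3 in La-Cer lung and no others. Over all genes it moved the called count from 8 to 0 in AD lung, from 330 to 12 in La-Cer against AD lung, and from 309 to 42 for the La-Cer difference. La-Cer against control gave 0 members in both tissues under every setting run.

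Of the named values under these settings, 1500 kept direction and call, 20 gained a call, 55 lost one and 55 changed sign. In La-Cer against control skin, Dsp (-0.01) was 0.021 with RLE, 0.255 with the size trend removed, 0.015 with the replicate block, 0.019 by DESeq2 and 0.005 in the 6 libraries compared, and Dsg1a was 0.071 with the size trend removed and 0.079 with the block. With the size trend removed, Dsg1a was 0.258 in AD against control skin and -0.187 in La-Cer against AD skin, Cgn was 0.013 between control tissues, and the La-Cer difference was -0.076 for Dsp and -0.015 for Cdh1. Leaving out 1 library gave these ranges of sign-changing values. In AD against control skin, Ocln ran from -0.597 to 0.06, Dsg1a from -0.388 to 0.653 and Cdh1 from -0.158 to 0.344. In La-Cer against control skin, Ocln ran from -0.161 to 0.475, Cgn from -0.94 to 0.544, Dsg1a from -0.401 to 0.666 and Dsp from -0.265 to 0.398. In La-Cer against AD skin, Cldn1 ran from -1.004 to 0.196, Tjp1 from -0.039 to 0.809 and Dsg1a from -0.324 to 0.339. In AD against control lung, Cldn18 ran from -0.398 to 0.367, Ocln from -0.237 to 0.169 and Tjp1 from -0.007 to 0.569. In La-Cer against control lung, Cldn5 ran from -0.247 to 0.014, Cldn18 from -0.188 to 0.576 and Ocln from -0.194 to 0.117, and in La-Cer against AD lung Cldn18 from -0.086 to 0.423 and Ocln from -0.181 to 0.159. Between control tissues Cgn ran from -0.831 to 0.12. The AD difference ran from -0.118 to 1.068 for Cldn1 and -0.498 to 0.099 for Ocln, and the La-Cer difference from -0.809 to 0.377 for Cldn1 and -0.081 to 0.365 for Cdh1.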

Other observations

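Lung control replicate 1 was below the other 2 control lung libraries for several plaque genes and above them for others. Cgnl1 was 42.7, 151 and 125 CPM, Jup 198, 658 and 731, Evpl 6.2, 20.6 and 19.5 and Ppl 28.8, 67.1 and 67.4 in replicates 1 to 3, but Pkp2 was 41.7, 31 and 26.8 and Pkp3 15.4, 13.4 and 12.9, highest in replicate 1. These genes were chosen after their values were seen. In the same libraries the endothelium sum was 2050, 4220 and 4310 and the adipocyte sum 2690 in replicate 1. The size measure, the longest size class minus the shortest, was -1.17, 0.25 and 0.225 in replicates 1 to 3. The genes lowest in replicate 1 have 7844 (Cgnl1), 6436 (Jup), 6384 (Evpl) and 6893 (Ppl) exonic bases, beside 5360 for Pkp2 and 3616 for Pkp3. The part of size in these values was not tested. These are values of single libraries with no test.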
